A study of Arabidopsis thaliana with 8 samples.

Results

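Loss of the adaptor was compared directly with loss of the acetyltransferase in the SAGA complex of Arabidopsis, using RNA sequencing of ada2b and hag1 seedlings. SAGA is a large coactivator complex conserved from yeast to plants. In plants HAG1, the orthologue of yeast Gcn5, acetylates histone H3 lysines at promoters, and ADA2B binds HAG1 and stimulates that activity. A comparison of one mutant with the other asks which genes differ between a seedling without the adaptor and one without the enzyme. Both seedling genotypes were labelled as homozygous mutants, and no allele is named in the sources used here. Plants of hag1, ada2b and wild type Col-0 were grown on Murashige and Skoog medium at 22 °C under 16 h of light and 8 h of darkness, and whole seedlings were taken after 12 days. Each genotype had 2 libraries, and another genotype, scs1 scs2a with 2 libraries, entered the fit but no test between genotypes. The members were the genes that reached a value of 10 in 2 or more of the 4 ada2b and hag1 libraries, which gave 21492 of the 32548 genes in the table.

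Of the 21492 members, 20237 reached 10 in all 4 libraries, 142 reached it in both ada2b libraries only, 465 in both hag1 libraries only, and 648 in another pair or in 3 libraries. Of the genes that passed through 1 genotype only, 102 of 142 and 365 of 465 were called below, a count that the threshold itself favours. Just inside the threshold, AT2G02720 had 10 and 2.88 in ada2b and 7.34 and 10.8 in hag1. Just outside it, LEA4-5, a late embryogenesis abundant protein, had 10 and 8.75 in ada2b and 2.15 and 9.84 in hag1. In all, 734 genes passed with exactly 2 libraries and 516 reached 10 in 1 library and stayed out.

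Values are the deposited normalised counts, one per library, and levels are compared within a gene because gene length was not taken into account. Sums over a list, where given, are carried by its most abundant genes. The 4 libraries had totals of 21441559 to 21587396, and all 8 had 20570967 to 22344725 after the authors' normalisation. These totals do not give the depth of sequencing, which is not known. Taken as reads, a value near 10 carries a 95% exact Poisson interval of about 4.8 to 18.4, which covers counting error only. Genes at 10 or more numbered 20905 and 20805 in ada2b, 21449 and 21336 in hag1 and 21448 and 21470 in wild type. Between libraries of 1 genotype the median absolute difference over members was 0.107 (ada2b) and 0.117 (hag1) on the log2 scale, and between an ada2b and a hag1 library it was 0.312 to 0.33. Differences below are ada2b minus hag1 on the log2(value + 1) scale ± SE from limma, with Benjamini-Hochberg adjustment over all 25459 fitted genes, and a gene is called at an adjusted p below 0.05. Whether the libraries of a genotype are separate cultures is not in the labels, and the spread behind each p-value may therefore be technical. In whole seedlings, fewer cells of a type and less RNA per cell cannot be told apart. Markers of green tissue and of root were present in all 4 libraries, and none of the 13 seed and pollen marker genes reached the member threshold (summed values of 1.94 to 6.01 in ada2b and 2.94 to 5.2 in hag1).

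The targeted genes came first. HAG1 (AT3G54610) stood at 394 and 436 in ada2b and 131 and 133 in hag1. Both hag1 libraries were the lowest of all, below the wild type values of 296 and 328, and both ada2b libraries were above wild type. The difference was 1.64 ± 0.09 (limma adjusted p = 1.24e-05). ADA2B (AT4G16420) stood at 567 and 613 in ada2b and 608 and 674 in hag1, and wild type at 708 and 712. Here the genotypes overlapped, and the difference of -0.12 ± 0.07 did not pass the test (limma adjusted p = 0.21). Reads from parts of a gene outside a lesion can remain in a mutant, and the sources used here do not place the lesions. The ADA2B level therefore says little about the ada2b label.

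Of the members, 10399 (48.4%) were called between ada2b and hag1. Of these, 5426 (25.2%) were higher in ada2b and 4973 (23.1%) were lower. The sides were unequal among large differences. At 2-fold or more, 578 members (2.69%) were higher in ada2b and 1644 (7.65%) were lower, which makes 2222 (10.3%) in all. At 4-fold or more, 92 (0.428%) were higher and 351 (1.63%) lower. The median over all members was 0.02 on the log2 scale, on values that the authors had already scaled. Libraries of the genotypes did not overlap at 16315 members (75.9%). In a test against a minimum of 2-fold, 104 members were higher in ada2b and 264 lower.

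**Figure D1:**
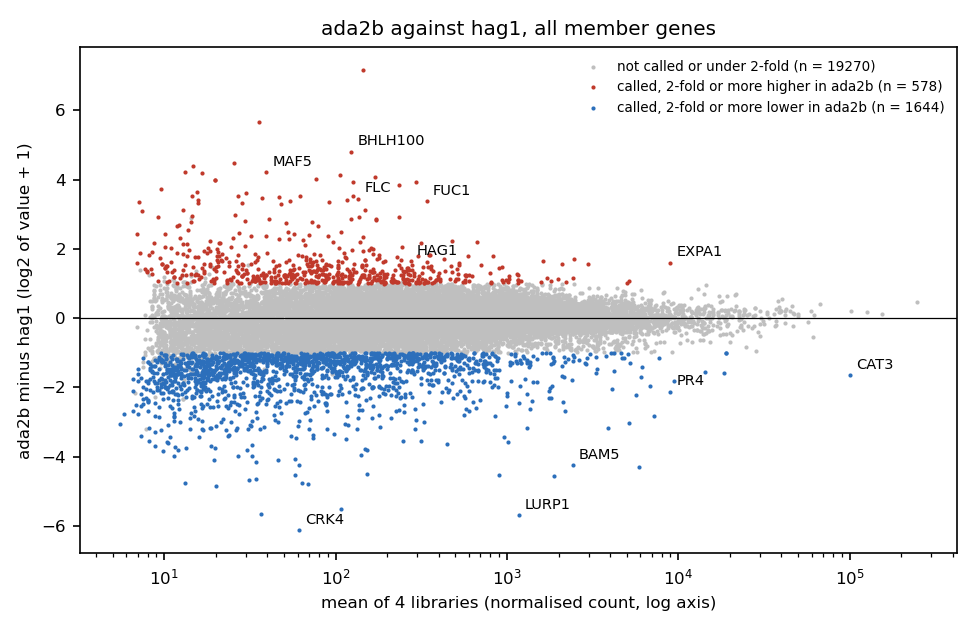
Each point is a member gene, with the mean normalised count of the 4 libraries on a log x axis and the log2 difference ada2b minus hag1 on the y axis. Red points mark the 578 genes called at 2-fold or more higher in ada2b and blue points the 1644 lower, and the blue points outnumber the red at every level.

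Large differences were most frequent at low levels. There a gene can pass the member threshold through 1 genotype alone, as 465 genes did through hag1 and 142 through ada2b. The part of the threshold in the shares below was not tested. Among the 2287 members with a mean under 30, 6.17% were called at 2-fold or more higher in ada2b and 24% lower, with a median difference of -0.45. Between 30 and 100 the shares were 5.6% and 14.7% of 3145 genes. Between 300 and 1000 they were 1.02% and 3.12% of 6577, and between 1000 and 3000 they were 0.538% and 1.87% of 3532. Above 3000 they were 0.228% and 2.28% of 1317. The median returned to 0.09 between 300 and 1000 and stood at -0.01 above 3000.

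**Figure D2:**
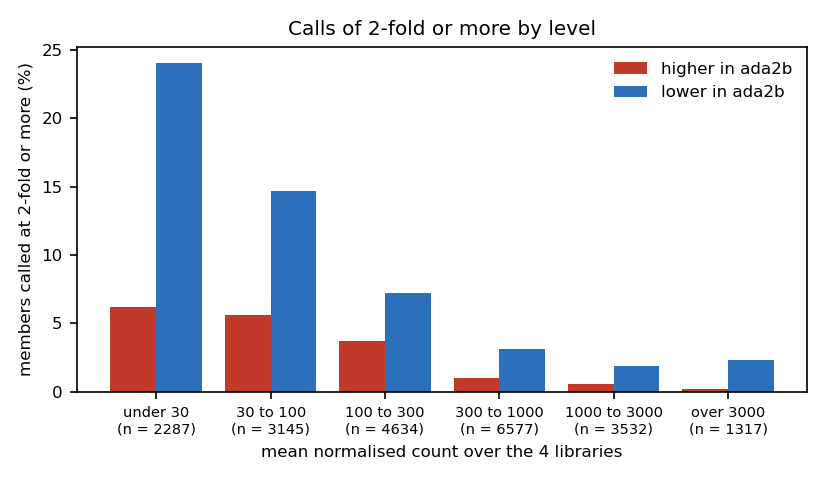
Bars give the percent of members called at 2-fold or more, on the y axis, in 6 classes of mean normalised count over the 4 libraries. The blue bars (lower in ada2b) fall from 24% under 30 to 1.87% between 1000 and 3000 and stand at 2.28% above 3000. The red bars (higher in ada2b) fall from 6.17% under 30 to 0.228% above 3000.

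The wild type libraries placed each difference. Of the 578 genes higher in ada2b by 2-fold or more, both wild type libraries lay between the mutants for 331, above both mutants for 83 and below both for 19. Of the 1644 lower in ada2b, wild type lay between for 544, above both mutants for 407 and below both for 143. In the other 145 and 550 genes the range of the wild type libraries overlapped that of a mutant. These places rest on 2 wild type libraries that both mutants share.

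**Figure D3:**
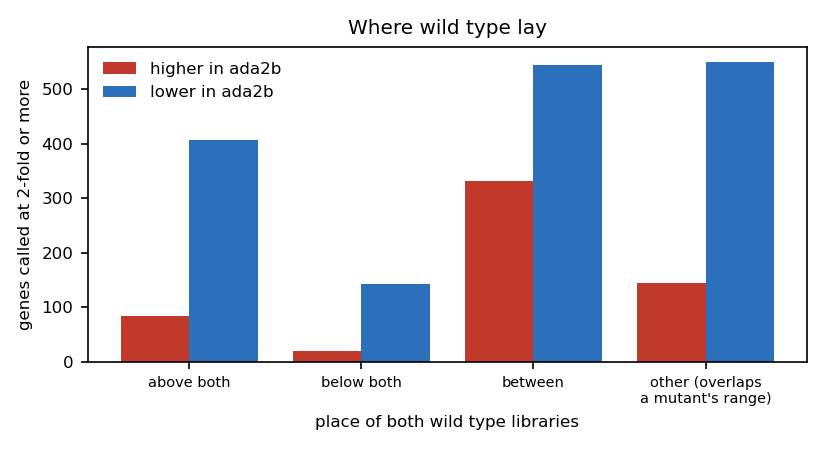
Bars count the members called at 2-fold or more between ada2b and hag1, on the y axis, by where both wild type libraries lay. Between the mutants is the most frequent place for genes higher in ada2b (331 of 578), and overlap with a mutant's range is for genes lower in ada2b (550 of 1644).

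The largest differences with ada2b higher included genes of metal supply and flowering time. FUC1 (AT2G28100), an alpha-L-fucosidase, stood at 617 and 629.7 in ada2b and 58.4 and 58.8 in hag1, and wild type at 538 and 501. The hag1 libraries were low and the ada2b libraries close to wild type, a difference of 3.39 ± 0.08 (limma adjusted p = 6.3e-07). HCS2 (AT1G37150), a holocarboxylase synthetase, stood at 64.1 and 77.9 in ada2b and 1.04 and 0 in hag1, with wild type between the mutants at 15.1 and 9.69. With 1 read in hag1 and 142 in ada2b, after rounding, the ratio of hag1 to ada2b was 0.00704, with a 95% exact counting interval of 0.000177 to 0.0399. CIB5, a cryptochrome-interacting bHLH factor, stood at 237 and 227 in ada2b and 21.8 and 16.6 in hag1 and 124 and 135 in wild type, so that wild type lay between (3.54 ± 0.17, limma adjusted p = 8.12e-06). The microRNA gene MIR5021 differed by 2.98. ZIFL2, a transporter of the zinc-induced facilitator family, stood at 387 and 439 in ada2b and 64.5 and 45 in hag1, and wild type at 161 and 140.0. Its ada2b libraries were the highest and its hag1 libraries the lowest (2.91 ± 0.18, limma adjusted p = 1.81e-05).

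The largest differences with ada2b lower included genes of defence, starch breakdown and lipid transfer. LURP1 (AT2G14560), a gene known from defence against downy mildew, stood at 13 and 136 in ada2b and 2031 and 2515 in hag1, and wild type at 1041 and 593. Its ada2b libraries lay far apart from each other, yet both were below every other library (-5.69 ± 0.88, limma adjusted p = 0.00122). Without ada2b replicate 1 the difference was -4.04 and without ada2b replicate 2 it was -7.33. BAM5 (AT4G15210), a beta-amylase found mainly in phloem, stood at 242 and 229.6 in ada2b and 5636 and 3557 in hag1. Wild type stood at 148 and 269, the same range as ada2b, so the 2 hag1 libraries stood alone (-4.24 ± 0.29, limma adjusted p = 3.1e-05). PYD4, an aminotransferase of pyrimidine breakdown, stood at 72.1 and 75 in ada2b and 1786 and 1654 in hag1, with wild type between at 759.6 and 422 (-4.53 ± 0.23, limma adjusted p = 8.81e-06). CRK4, a cysteine-rich receptor-like kinase, had 2 reads in ada2b and 242 in hag1, a ratio of 0.00826 (95% exact counting interval 0.000995 to 0.0302), and wild type stood at 45.7 and 44.8. DXPS1, named as a deoxyxylulose phosphate synthase, had 1 read in ada2b and 147 in hag1 (ratio 0.0068, interval 0.000171 to 0.0385) and was at 0 in both wild type libraries. LTP4, a lipid transfer protein, had 1 read in ada2b and 80 in hag1 (ratio 0.0125, interval 0.000313 to 0.0717), and wild type stood at 39.7 and 71. AGO9, an Argonaute protein known from ovules, DPBF2, a bZIP factor known from seeds, HO3, a haem oxygenase, and ANK, an ankyrin protein, differed by -4.16, -4.08, -3.99 and -3.95. Without ada2b replicate 1 AGO9, DPBF2 and ANK differed by -5.09, -2.93 and -2.92, and without ada2b replicate 2 by -3.24, -5.23 and -4.98.

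Among abundant genes the same contrast held single enzymes of large output. CAT3 (AT1G20620), a catalase that removes hydrogen peroxide, stood at 45658 and 51613 in ada2b and 160645 and 143841 in hag1, and wild type at 55423 and 47809.6. The ada2b and wild type libraries overlapped and both hag1 libraries stood far above them, with a difference of -1.65 ± 0.11 (limma adjusted p = 3.05e-05). EXPA1 (AT1G69530), an expansin that loosens walls, went the other way, at 13209.6 and 13803 in ada2b and 4364 and 4542 in hag1 with wild type between at 6619.7 and 6617 (1.6 ± 0.06, limma adjusted p = 2.09e-06). RVE2, a MYB factor related to the clock, MIPS1, which makes inositol phosphate, ORG1 and APS4 were higher in ada2b by 1.07, 1.03, 1.71 and 1.16. PRXCB, a peroxidase of the apoplast, EXT4, an extensin, and PR4, a chitin-binding defence protein, differed by -1.55, -1.82 and -2.12.

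**Figure D4:**
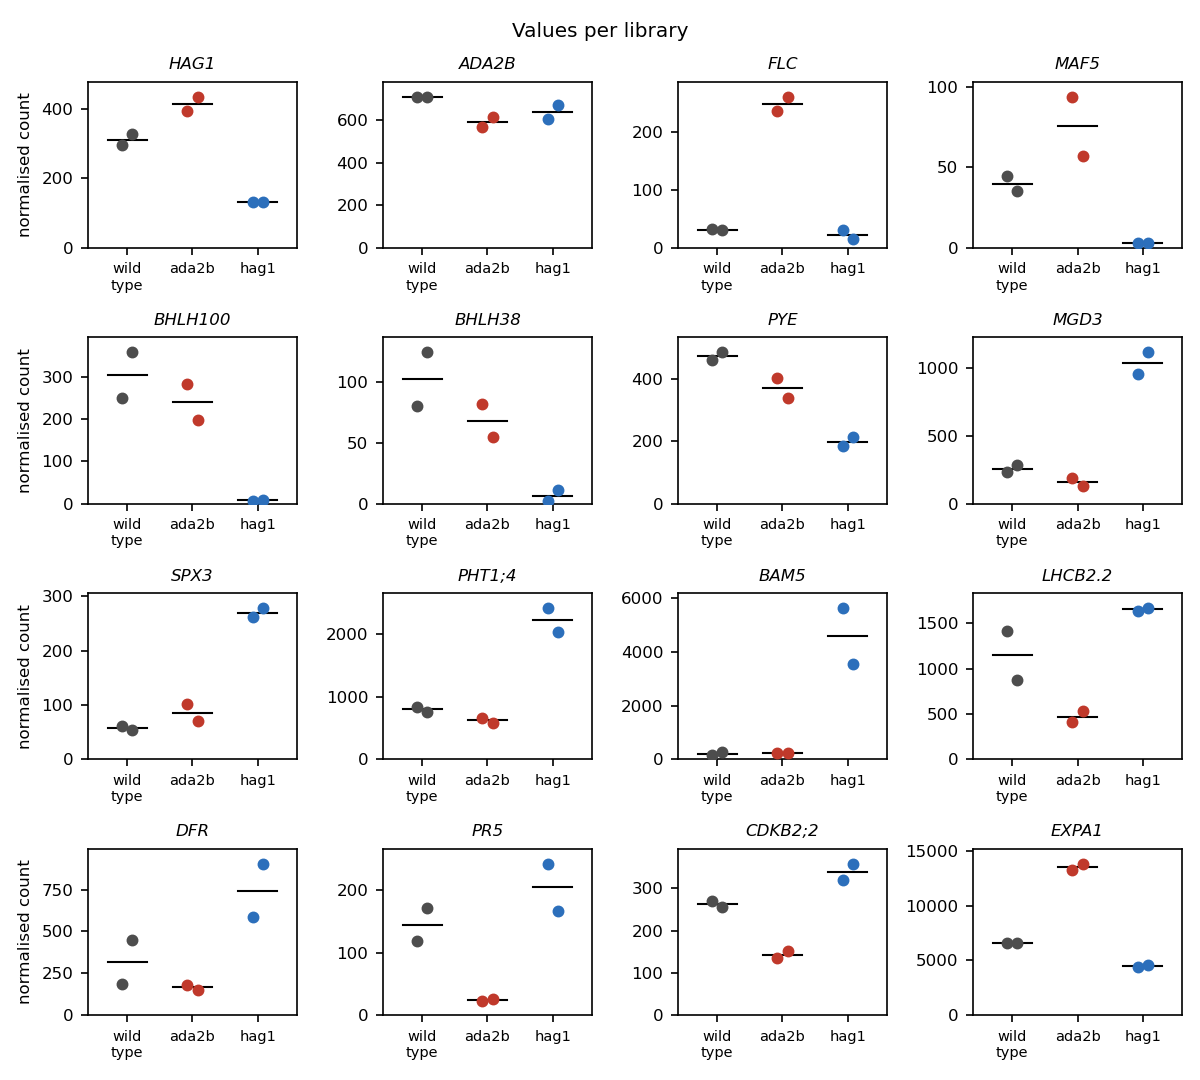
Each panel shows 1 gene, with the normalised count on the y axis starting at 0. Points are the 2 libraries of wild type, ada2b and hag1, and lines are their means. The hag1 points stand apart from wild type and ada2b for BHLH100, MGD3, SPX3, PHT1;4 and BAM5, the ada2b points for FLC and PR5, and wild type lies between the mutants for MAF5 and EXPA1.

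The SAGA genes in the lists differed little apart from HAG1, and TRA1 was not among them. Counts over lists stand beside the 25.2% of all members called higher and the 23.1% called lower. Of the 5 members of the acetyltransferase module, HAG1, SGF29A and SGF29B were higher in ada2b and ADA2A and ADA2B were not called. SGF29A and SGF29B, tudor-domain proteins that read histone methylation, differed by 0.47 ± 0.10 and 0.39 ± 0.13. Of 8 core list members, 3 histone-fold TAF genes (TAF6, TAF12 and TAF12B) were higher in ada2b and 5 were not called (median 0.13), TAF12 by 0.4 ± 0.11. The SGF29A call ended without ada2b replicate 2, the SGF29B call without ada2b replicate 1, hag1 replicate 1 or hag1 replicate 2 and with another scaling, and the TAF12 call without ada2b replicate 1, ada2b replicate 2 or hag1 replicate 1. UBP22, the ubiquitin protease of the deubiquitination module, stood at 361 and 356 in ada2b and 411 and 437 in hag1 and was lower in ada2b (-0.24 ± 0.07, limma adjusted p = 0.0246). This call ended without ada2b replicate 1, without ada2b replicate 2 and without hag1 replicate 2. Among 10 other histone acetyltransferases, 5 were higher and 1 lower, and without ada2b replicate 1 the count higher was 3. The exception in size was HAC2, a CBP-type enzyme, at 3 and 2.92 in ada2b and 31.4 and 38.3 in hag1 against 0.011 and 1.06 in wild type, so that both hag1 libraries lay above the other 4 (-3.17 ± 0.43, limma adjusted p = 0.000638). HAM2, of the MYST family, and HAC4 were higher in ada2b by 0.51 and 0.64. Of 15 histone deacetylases, 6 were higher and 1, HDA18, was lower, and no member differed by 2-fold or more. The HDA18 call ended without ada2b replicate 1 and without hag1 replicate 2.

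Most members of the iron deficiency list were called higher in ada2b. When iron is short, Arabidopsis seedlings induce the Ib bHLH factors bHLH38, bHLH39, bHLH100 and bHLH101, which act with FIT on the root uptake genes IRT1 and FRO2, while ferritins store iron when it is ample. Of 20 listed genes, 16 were members. Of these 16 members, 10 were higher in ada2b, none was lower and 6 were not called, with a median of 0.75 against 0.02 over all members. NAS2, listed but not a member, was called lower in ada2b (-2.17 ± 0.60, limma adjusted p = 0.0184). It stood at 1 and 0.971 in ada2b, 3.25 and 17.7 in hag1 and 66.8 and 96.7 in wild type. F6'H1, an enzyme of coumarin synthesis, differed by -0.42 and was called lower without hag1 replicate 2. BHLH100 (AT2G41240) stood at 283 and 197 in ada2b and 6.29 and 8.83 in hag1. Wild type stood at 250.1 and 358, so ada2b and wild type overlapped and both hag1 libraries were far below (4.81 ± 0.32, limma adjusted p = 2.64e-05). BHLH38 (AT3G56970) stood at 82.1 and 54.4 in ada2b and 2.16 and 10.8 in hag1, and wild type at 80 and 124 (3.47 ± 0.56, limma adjusted p = 0.00158), and its difference was 2.52 without hag1 replicate 1 and 4.42 without hag1 replicate 2. Its neighbour BHLH39 (AT3G56980) stood at 115 and 85.5 in ada2b and 8.35 and 8.82 in hag1, and wild type at 142 and 164 (3.39 ± 0.28, limma adjusted p = 6.6e-05). The hag1 libraries were the lowest of the 6 for both genes, while the ada2b libraries reached into or near the wild type range.

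BHLH101 differed by 2.29 ± 0.22 (limma adjusted p = 0.000124), so all 4 Ib bHLH genes were higher in ada2b. Further down the pathway the differences were smaller. FIT1, the partner of the Ib factors, stood at 195 and 154 in ada2b and 124 and 80.2 in hag1 (0.79 ± 0.20, limma adjusted p = 0.0137), and its call ended without ada2b replicate 1 or hag1 replicate 2. PYE, a bHLH repressor that acts in the root vasculature, stood at 402 and 338 in ada2b and 185 and 213 in hag1 with wild type at 462 and 485 (0.89 ± 0.12, limma adjusted p = 0.000551). BTS, an E3 ligase that lowers the iron response, and OPT3, which carries iron to the phloem, differed by 0.72 ± 0.09 and 0.87 ± 0.07. IRT1, the iron transporter, stood at 382 and 277 in ada2b and 183 and 134 in hag1, and these genotypes did not overlap. Its wild type libraries, which share in the estimate of spread, lay far apart at 210 and 615. The IRT1 difference was 1.05 ± 0.41 (limma adjusted p = 0.0724). Of the settings run, IRT1 was called only when members alone were fitted (limma adjusted p = 0.0359). FRO2, the ferric reductase, stood at 70.1 and 40.7 in ada2b and 74.9 and 56.8 in hag1 and was not called (-0.28 ± 0.56, limma adjusted p = 0.717). Its wild type libraries also lay far apart, at 68.8 and 291. On the storage side, FER1 and NAS3 were lower in ada2b, by -0.46 and -1.07, and the other 3 of 5 genes were not called. FER1, a ferritin, stood at 3909 and 3951 in ada2b and 5745 and 5072 in hag1 and at 1585 and 1584 in wild type, so wild type lay below both mutants.

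The bases upstream of 3 of these genes are shown because the G-box (CACGTG), a palindromic core bound by bHLH and bZIP proteins, occurs in them. Each run gives the 250 bases before the annotated start on the gene's strand, from the RefSeq sequence of TAIR10.1, whose annotation places no exon there. Capitals mark the G-box. The runs lie at chr2:17199455-17199704 (minus strand), chr3:21085246-21085495 (minus strand) and chr3:6273716-6273965 (plus strand).
BHLH100: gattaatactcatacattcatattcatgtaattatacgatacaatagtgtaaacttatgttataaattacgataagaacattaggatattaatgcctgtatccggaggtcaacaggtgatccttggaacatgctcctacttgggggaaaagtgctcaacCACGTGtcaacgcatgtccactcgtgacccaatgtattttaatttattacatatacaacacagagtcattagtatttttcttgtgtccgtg
bHLH38: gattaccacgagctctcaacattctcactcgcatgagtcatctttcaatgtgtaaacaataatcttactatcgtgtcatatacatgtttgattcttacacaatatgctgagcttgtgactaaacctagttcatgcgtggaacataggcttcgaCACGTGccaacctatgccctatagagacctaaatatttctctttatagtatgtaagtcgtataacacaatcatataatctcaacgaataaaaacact
BTS: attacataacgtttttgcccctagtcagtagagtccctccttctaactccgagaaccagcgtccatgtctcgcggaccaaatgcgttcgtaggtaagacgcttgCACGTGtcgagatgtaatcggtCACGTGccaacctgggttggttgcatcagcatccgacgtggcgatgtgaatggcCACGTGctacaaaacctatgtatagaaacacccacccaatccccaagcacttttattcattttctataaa
The G-box began 91 bases before the start of BHLH100, 97 before that of bHLH38, and 146, 124 and 70 before that of BTS. In a window of 250 bases before and 50 after the start, searched on both strands, 5 of 16 iron list members had a G-box (bHLH38, BHLH100, FRO3, BTS and OPT3), against 8.19% of all members. The 5 had a median difference of 0.87 and the other 11 of 0.67. A G-box can overlap the ABRE letters ACGTGT or ACGTGG, and a match shows only that these letters are present.

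Most genes of phosphate starvation were called lower in ada2b. Seedlings short of phosphate induce, through PHR1, the SPX regulators, PHT1 transporters and enzymes that replace membrane phospholipids with galactolipids and sulfolipids. Of 18 members, 15 were lower in ada2b than in hag1, none was higher and 3 were not called, with a median of -0.79, and 7 were lower by 2-fold or more. Summed over the list, values were 29100 and 29700 in ada2b, 49100 in both hag1 libraries and 17900 and 19200 in wild type.  Among regulators, SPX3 (AT2G45130), an SPX-domain protein, stood at 101 and 69.9 in ada2b and 262 and 278 in hag1, and wild type at 60.8 and 53.4. The hag1 libraries stood above the other 4 (-1.67 ± 0.19, limma adjusted p = 0.000271). PHR1, the factor upstream of the response, stood at 1079 and 1068 in ada2b and 886 and 1015 in hag1 and was not called (0.18 ± 0.07, limma adjusted p = 0.08), but was called higher without hag1 replicate 2.

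Among transporters, PHT1;4 (AT2G38940) stood at 667 and 582 in ada2b and 2416 and 2032 in hag1, and wild type at 836 and 757 (-1.83 ± 0.11, limma adjusted p = 2.04e-05). PHT1;1, its close relative, stood at 1230.3 and 1227 in ada2b and 1362 and 1037 in hag1 (0.05 ± 0.12, limma adjusted p = 0.782). The genotypes thus separated at PHT1;4 and overlapped at PHT1;1. The lipid enzymes held the largest difference of the list. MGD3 (AT2G11810), a galactolipid synthase, stood at 191 and 133 in ada2b and 956 and 1117 in hag1, and wild type at 232 and 283, with ada2b below wild type and hag1 above it (-2.69 ± 0.22, limma adjusted p = 6.66e-05). GDPD6, a glycerophosphodiester phosphodiesterase, stood at 28 and 25.3 in ada2b and 131 and 123 in hag1 and at 9.93 and 17 in wild type (-2.22 ± 0.33, limma adjusted p = 0.00108). MGD2, PLDP2, a phospholipase D, and SRG3 differed by -1.22 ± 0.07, -1.24 ± 0.09 and -0.96 ± 0.09, and the sulfolipid enzymes SQD1 and SQD2 by -0.41 ± 0.07 and -0.74 ± 0.07. The acid phosphatase gene PAP17 differed by -1.03, and the non-coding RNA gene IPS1 was not called (-0.69 ± 0.27, limma adjusted p = 0.074) except without hag1 replicate 1 or when only members were fitted.

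Upstream runs of 3 phosphate genes are shown because they hold the P1BS element (GNATATNC), the site bound by PHR1 and its relatives. They are read as above, lie at chr2:18606160-18606409 (plus strand), chr3:350011-350260 (minus strand) and chr3:1634944-1635193 (plus strand) of TAIR10.1, and have P1BS in capitals.
SPX3: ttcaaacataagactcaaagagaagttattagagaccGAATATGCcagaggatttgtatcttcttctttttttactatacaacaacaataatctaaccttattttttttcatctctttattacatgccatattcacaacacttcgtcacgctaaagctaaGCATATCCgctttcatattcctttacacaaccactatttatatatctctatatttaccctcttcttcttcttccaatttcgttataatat
SRG3: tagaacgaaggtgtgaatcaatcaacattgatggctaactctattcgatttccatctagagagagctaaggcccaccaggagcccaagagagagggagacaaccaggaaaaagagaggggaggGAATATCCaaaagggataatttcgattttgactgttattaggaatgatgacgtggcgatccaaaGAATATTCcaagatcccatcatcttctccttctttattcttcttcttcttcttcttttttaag
PLDP2: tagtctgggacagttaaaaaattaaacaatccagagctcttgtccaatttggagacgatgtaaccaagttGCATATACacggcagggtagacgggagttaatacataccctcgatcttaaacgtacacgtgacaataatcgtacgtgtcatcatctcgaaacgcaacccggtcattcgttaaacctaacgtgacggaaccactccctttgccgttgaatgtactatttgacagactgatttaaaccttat
P1BS began 213 and 90 bases before the start of SPX3, 127 and 63 before that of SRG3 and 180 before that of PLDP2. It occurred in 10 of the 18 list members, SPX1, SPX3, PHT1;4, SRG3, GDPD6, MGD2, SQD1, PLDP2, PS2 and NPC4, against 6.21% of all members and 8.15% of the 2-fold genes lower in ada2b. All 10 were called lower in ada2b, with a median of -1.09, and the other 8 had a median of -0.66. The list was chosen for its phosphate response, so its share with P1BS is not independent of that choice. Like splits by other promoter letters gave medians of -0.15 with and -0.0 without in the clock list. They gave -0.11 and -0.14 for ribosomal proteins and -0.57 and -0.36 for cysteine-rich receptor-like kinases. A match shows only that the letters are present, and its part in the differences was not tested.

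The floral repressors FLC, MAF4 and MAF5 were higher in ada2b. FLC and its MAF relatives are MADS-box proteins that delay flowering, FT and SPL genes promote it, and MAF2 to MAF5 lie next to one another. FLC (AT5G10140) stood at 236 and 261 in ada2b and 30.1 and 15.6 in hag1, and wild type at 32.6 and 29.9. The ada2b libraries alone were high (3.45 ± 0.28, limma adjusted p = 5.79e-05). MAF4 (AT5G65070) stood at 83.1 and 93.5 in ada2b and 8.34 and 7.84 in hag1, and wild type at 36.3 and 62.6 (3.29 ± 0.27, limma adjusted p = 5.92e-05). MAF5 (AT5G65080) stood at 94.1 and 57.2 in ada2b and 3.13 and 2.94 in hag1 with wild type between at 44.4 and 35.3 (4.21 ± 0.29, limma adjusted p = 3.05e-05). In contrast, MAF2 stood at 779.8 and 774 in ada2b and 907 and 906 in hag1 and MAF3 at 208 and 207 in ada2b and 231 and 224 in hag1, differences of -0.22 ± 0.06 and -0.13 ± 0.12 (limma adjusted p = 0.015 and 0.395). So within 1 gene cluster MAF4 and MAF5 were far higher in ada2b and MAF2 slightly lower, and the MAF2 call ended with any 1 of the 4 libraries left out.

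Of the 17 flowering list members, 4 were higher in ada2b and 8 lower. The promoters AGL24 and SPL9 were lower in ada2b, by -1.12 and -0.77. FUL, a MADS-box gene of the inflorescence, stood at 6 and 0.945 in ada2b and 14.6 and 14.7 in hag1, and the ada2b libraries lay below both hag1 libraries (-2.08 ± 0.55, limma adjusted p = 0.0152). That call ended without ada2b replicate 2 (-1.16), hag1 replicate 1 or hag1 replicate 2, and without ada2b replicate 1 the difference was -3.01. GI, of the photoperiod pathway, differed by -0.87 ± 0.20. FT, the mobile flowering signal, stood at 20 and 25.3 in ada2b and 32.5 and 49.1 in hag1 and was not called (-0.8 ± 0.34, limma adjusted p = 0.0936). The count lower rests on all 4 libraries, and without ada2b replicate 1, ada2b replicate 2, hag1 replicate 1 and hag1 replicate 2 it was 5, 4, 4 and 3.

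Nitrogen genes were called in both directions. Of 14 members, 5 were higher in ada2b and 5 lower. The assimilation enzymes nitrate reductase (NIA1 and NIA2), nitrite reductase (NIR1) and glutamate synthase (GLU1 and GLT1) were the 5 higher, by 0.5, 0.34, 0.58, 0.28 and 0.67, of which the GLU1 call ended without ada2b replicate 1, ada2b replicate 2 or hag1 replicate 1. The NIA2 call ended when only the 4 ada2b and hag1 libraries were fitted (limma adjusted p = 0.0561). It also ended when every gene above 0 was fitted (limma adjusted p = 0.066). NIR1 stood at 14239.6 and 14214 in ada2b and 9737 and 9352 in hag1 (0.58 ± 0.05, limma adjusted p = 0.000114), and its genotypes did not overlap. The transport genes NRT1.1, NRT2.1 and NRT3.1 were lower, by -0.64, -2.0 and -0.64. NRT2.1, a high-affinity nitrate transporter, stood at 72.1 and 74 in ada2b and 279.6 and 313 in hag1, and wild type at 234 and 327 (-2.0 ± 0.19, limma adjusted p = 0.000117). HRS1, a GARP factor that links nitrate and phosphate signals, stood at 224 and 255 in ada2b and 964 and 899 in hag1 and at 289.7 and 336 in wild type, with hag1 highest (-1.96 ± 0.10, limma adjusted p = 1.05e-05). The division into assimilation and transport was made after the values were seen.

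Carbon starvation genes were lower in ada2b in 9 of 19 cases and higher in 3. DIN2, a dark-inducible beta-glucosidase, stood at 138 and 167 in ada2b and 519 and 659 in hag1 and at 11.9 and 7.54 in wild type, so both mutants were above wild type and hag1 more so (-1.94 ± 0.35, limma adjusted p = 0.0027). PPDK, which makes phosphoenolpyruvate, differed by -2.1 ± 0.11. GDH1, a glutamate dehydrogenase, IVD and MCCB, of leucine breakdown, were higher in ada2b by 0.96, 0.62 and 0.43. The count of 9 lower fell to 5 without ada2b replicate 1, without hag1 replicate 1 or without hag1 replicate 2. Among 13 starch genes, 4 were higher and 7 lower. APL3, a subunit of the enzyme that commits sugar to starch, differed by -1.49 ± 0.10, and MEX1, the maltose exporter, by 0.49 ± 0.07. Beside BAM5 at -4.24, the beta-amylases BAM1 and BAM9 differed by -0.41 and 0.34.

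None of 12 photosystem I genes was called by limma at an adjusted p below 0.05, while 1, PSAG, had an unadjusted p below 0.05 and was called with voom weights, with a range of -0.2 to 0.22 and sums of 183000 and 186000 in ada2b and 180000 and 192000 in hag1. Of 20 antenna genes, 8 were lower in ada2b and none higher. Of these 8, 7 were among the 14 genes of the photosystem II antenna (median -0.53), whose other 7 were not called, and 1, LHCA4, among the 6 of photosystem I (median -0.02). LHCB2.2 stood at 410.4 and 532 in ada2b and 1636 and 1667 in hag1, and wild type at 1415 and 879 (-1.82 ± 0.22, limma adjusted p = 0.000344). LHCB2.3 and LHCB2.1 differed by -1.73 and -1.28. LHCB3, a trimer partner, stood at 3096 and 3576 in ada2b and 8613 and 9184 in hag1, and wild type at 12717 and 8025 (-1.42 ± 0.18, limma adjusted p = 0.000424). LHCB4.3 differed by -1.59 ± 0.08, while its relatives LHCB4.1 and LHCB4.2, at -0.07 and -0.16, were not called. The LHCB1 and LHCB2 genes are near-identical copies that may share 50 bp reads, so single members are uncertain.

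**Figure D5:**
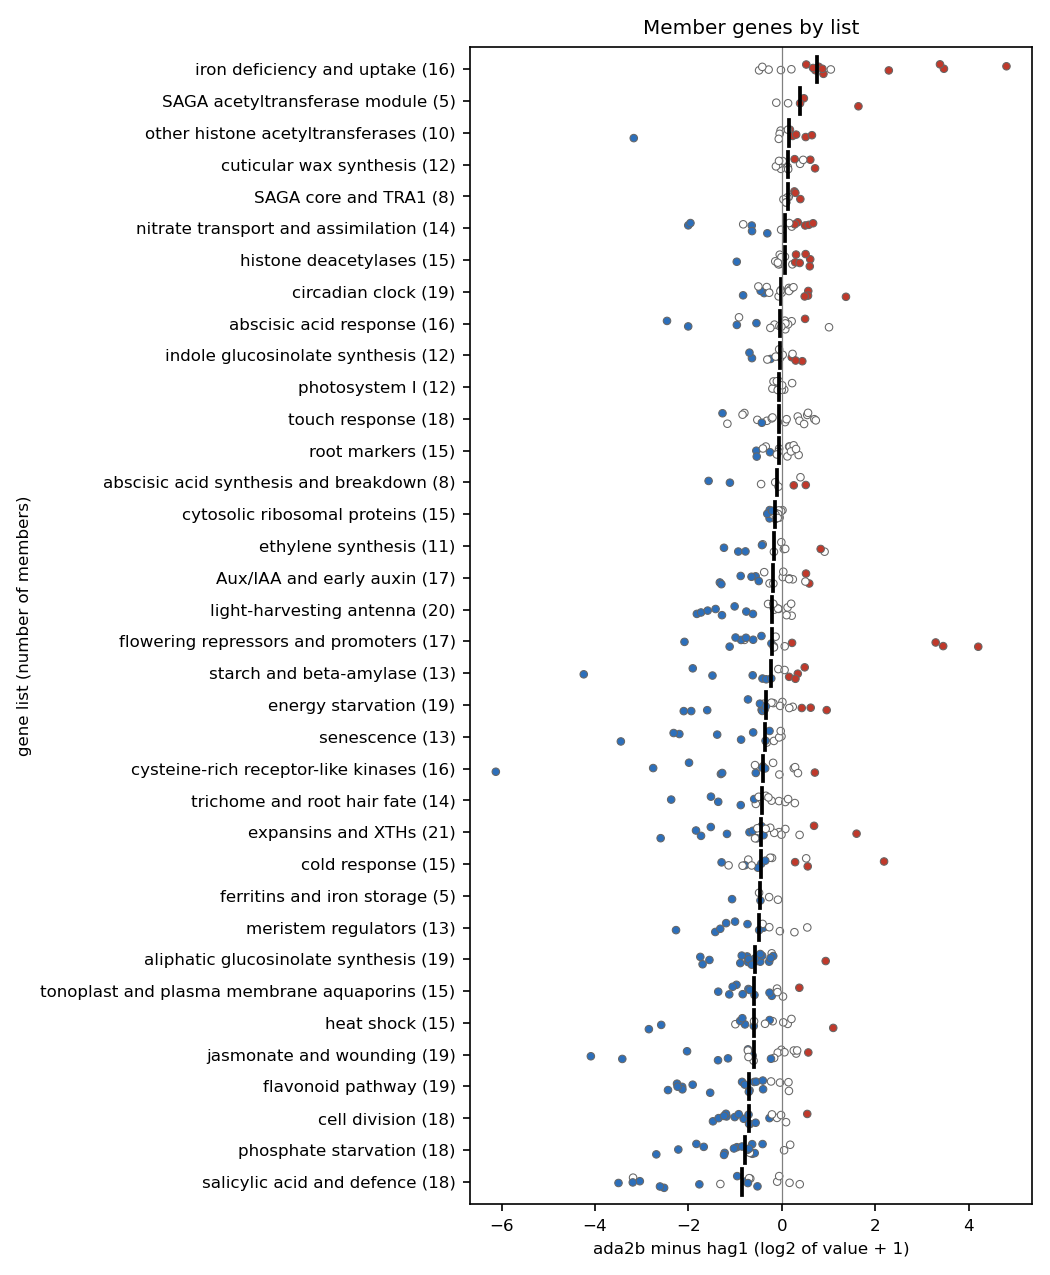
Each row is a gene list with at least 5 members, each point a member placed by its log2 difference ada2b minus hag1 on the x axis, and the black line the list's median. Filled points were called (red higher and blue lower in ada2b) and open points were not, and the medians run from -0.86 for salicylic acid and defence to 0.75 for iron deficiency.

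Most aliphatic glucosinolate and flavonoid genes were called lower in ada2b. Of 19 genes of aliphatic glucosinolates, sulfur compounds made from methionine, 17 were lower in ada2b and 1 higher, with a median of -0.57. Summed values were 21600 and 22000 in ada2b, 32800 and 34400 in hag1 and 49400 and 51100 in wild type. MAM3, which lengthens the side chain, stood at 925 and 1101 in ada2b and 3381 and 3169 in hag1, and wild type at 2289 and 2057 (-1.7 ± 0.09, limma adjusted p = 9.28e-06). CYP83A1, the oxime-metabolising enzyme, stood at 2659 and 2532 in ada2b and 4469 and 4954 in hag1, and wild type at 7505 and 7743 (-0.86 ± 0.06, limma adjusted p = 3.74e-05). The 1 higher was the regulator MYB29, by 0.94, while the other MYB regulators of the list, MYB28 among them (-0.74), were lower in ada2b. Indole glucosinolate genes did not lean one way, with 3 of 12 higher, 3 lower and a median of -0.04. Without ada2b replicate 1 the counts were 1 and 1, and without hag1 replicate 1 the count lower was 1.

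Of 19 flavonoid genes, 15 were lower in ada2b and none higher (median -0.71). The early enzymes CHS, TT5, F3H, TT7 and FLS1 differed by -0.55 to -0.85, and the anthocyanin enzymes DFR, LDOX and UF3GT with the carrier TT19 by -1.53 to -2.23. DFR, which makes leucoanthocyanidins, stood at 180.2 and 151 in ada2b and 584 and 904 in hag1, and wild type at 183 and 446 (-2.13 ± 0.39, limma adjusted p = 0.00298). The ada2b libraries were below both wild type libraries and the hag1 libraries above both. TT8, a bHLH activator, and MYB11, a MYB activator of flavonols, differed by -1.91 and -2.44. The grouping into early and late enzymes was made with the values known. Of 12 cuticular wax genes, 3 were higher, close to the 25.2% of all members, and none was lower. KCS6 and KCS1, which elongate very long chain fatty acids, differed by 0.71 ± 0.06 and 0.61 ± 0.10, and CER10 by 0.27 ± 0.06.

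Most cell division genes were called lower in ada2b. Of 18, 13 were lower, 4 were not called and 1 was higher (median -0.71), with sums of 4600 and 4720 in ada2b, 6280 and 6400 in hag1 and 6610 and 6920 in wild type. CDKB2;2, a kinase of mitosis, stood at 134 and 152 in ada2b and 319 and 358 in hag1, and wild type at 271 and 256 (-1.24 ± 0.10, limma adjusted p = 6.24e-05). The groups did not overlap and ada2b was lowest. CYCD3;1, a D-type cyclin that responds to cytokinin, differed by -1.35 ± 0.07, and CYCB1;1 and the cytokinesis syntaxin KNOLLE by -0.82 ± 0.14 and -0.71 ± 0.06. CYCD2;1 was the 1 higher (0.54 ± 0.10), and the replication genes PCNA1 and MCM2 were not called (-0.21 and 0.09), PCNA1 except without hag1 replicate 2 and with the other scalings. Of 13 meristem regulators, 8 were lower, 5 were not called and none was higher. ANT, an AP2 factor of organ growth, stood at 242 and 255 in ada2b and 431 and 577 in hag1 and at 488 and 557 in wild type (-1.0 ± 0.14, limma adjusted p = 0.00071), and AS2, a leaf polarity gene, differed by -1.42 ± 0.22. KLU, a cytochrome P450 that prolongs organ growth, differed by -1.32 ± 0.18.

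Growth genes of the wall and of water transport were more often called lower than higher. Of 21 expansins and xyloglucan enzymes, 10 were lower in ada2b and 2, EXPA1 and XTH5, higher. Only 1 was called higher without ada2b replicate 1, without ada2b replicate 2 or without hag1 replicate 2. XTH33, XTH23 and EXLA1 differed by -2.59, -1.84 and -1.73. Summed values of this list, which includes the abundant EXPA1, went the other way. They were 29000 and 30900 in ada2b, 24700 and 25000 in hag1 and 31600 and 31800 in wild type. Of 15 aquaporins, 10 were lower and 1, PIP1;1, higher (median -0.59). TIP2;1, a tonoplast water channel, stood at 1953 and 2225 in ada2b and 4508 and 4588 in hag1, and wild type at 10428 and 9075 (-1.13 ± 0.08, limma adjusted p = 3.74e-05), so both mutants were below wild type and ada2b further. Summed aquaporin values were 39400 and 40900 in ada2b, 55200 and 55500 in hag1 and 101000 and 104000 in wild type. In the auxin list 2 of 17 were higher (1 without ada2b replicate 2 or hag1 replicate 1) and 6 lower. Of 14 trichome and root hair genes, 5 were lower, none was higher and 9 were not called, a smaller share called than the 48.4% of all members. ETC1 and ETC3, small MYB inhibitors of trichome fate, differed by -2.37 and -1.52.

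Defence genes that were called were mostly lower in ada2b. Of 18 genes of salicylic acid, the hormone of defence against biotrophs, 10 were lower in ada2b and none higher (median -0.86), and 1 was higher without ada2b replicate 1. PR5 (AT1G75040), a thaumatin-like defence protein, stood at 22 and 25.3 in ada2b and 242 and 167 in hag1, and wild type at 119 and 171. The ada2b libraries were below the other 4 (-3.04 ± 0.24, limma adjusted p = 5.56e-05). PR2, a glucanase, stood at 25 and 12.6 in ada2b and 195 and 229 in hag1, and wild type at 39.6 and 64.7 (-3.5 ± 0.56, limma adjusted p = 0.00145). PR1, the usual marker, stood at 0 and 1.96 in ada2b and 15.6 and 13.7 in hag1 and at 52.2 and 0.386 in wild type, and was not called (-3.18 ± 1.38, limma adjusted p = 0.0952). It was called when only the 4 ada2b and hag1 libraries were fitted (limma adjusted p = 0.0347), without the wild type libraries that lay far apart. WRKY70 and WRKY54, factors of this pathway, differed by -2.52 ± 0.31 and -2.61 ± 0.33, while ICS1, the synthesis enzyme, and NPR1, the receptor, were not called (-0.1 and 0.17).

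Of 19 jasmonate genes, 8 were lower in ada2b and 1, AOS, higher. None was called higher without ada2b replicate 2 or hag1 replicate 1, and 3 were without hag1 replicate 2. CORI3, a member of the tyrosine transaminase family induced by coronatine, stood at 174 and 154 in ada2b and 1769 and 1743 in hag1, and wild type at 5095 and 5601 (-3.42 ± 0.11, limma adjusted p = 1.66e-06). VSP1, a storage protein of wounded leaves, and JAZ5 differed by -1.37 ± 0.19 and -2.03 ± 0.37. The defensin PDF1.2 stood at 5 and 2.9 in ada2b and 54.7 and 121 in hag1 and at 7.59 and 6.42 in wild type (-4.09 ± 0.42, limma adjusted p = 0.000171), but its reads may be shared with the near copy PDF1.2c. Of 16 cysteine-rich receptor-like kinases, 8 were lower and 1 higher, with CRK6 and CRK5 at -1.99 and -1.3, and 5 were lower without hag1 replicate 1. The count higher was 0 without ada2b replicate 1 or hag1 replicate 1 and 2 without hag1 replicate 2. Of 13 senescence genes, 8 were lower and none higher, with SAG29 at 8.01 and 9.74 in ada2b and 134 and 84.1 in hag1 (-3.45 ± 0.37, limma adjusted p = 0.000211). That count was 5 without ada2b replicate 1 and 4 without hag1 replicate 1.

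Stress lists held calls in both directions. The abscisic acid response list, with 11 of 16 not called, held a smaller share called than the 48.4% of all members. In the cold list, 3 of 15 were higher in ada2b and 5 lower. The tandem pair COR15A and COR15B, chloroplast proteins that protect membranes in freezing, differed in opposite directions. COR15A stood at 473 and 406 in ada2b and 742 and 1552 in hag1, and wild type at 5229 and 6024 (-1.29 ± 0.31, limma adjusted p = 0.00958), a call that ended without ada2b replicate 2. COR15B stood at 1012 and 1189.5 in ada2b and 226 and 254 in hag1, and wild type at 2719 and 2591 (2.19 ± 0.20, limma adjusted p = 0.000106). Both mutants were below wild type at COR15A, and at COR15B hag1 was far the lowest. The count higher was 1 without ada2b replicate 1. CBF2, a cold activator, stood at 8.01 and 31.3 in ada2b and 18 and 72.8 in hag1 and was not called (-1.14 ± 0.77, limma adjusted p = 0.27). In the abscisic acid response list 1 of 16 was higher (0 without ada2b replicate 2 or hag1 replicate 1) and 4 lower, with the phosphatase HAI1 at -2.46 ± 0.38. Of 8 synthesis and breakdown genes, 2 were higher (1 without ada2b replicate 1, ada2b replicate 2 or hag1 replicate 1) and 2 lower, including CYP707A1, which degrades the hormone (-1.11 ± 0.19). In the heat shock list 7 of 15 were lower and 1 higher, with HSP18.2 at 2 and 1.94 in ada2b and 24.9 and 16.6 in hag1 (-2.85 ± 0.30, limma adjusted p = 0.000198) and BIP3, a chaperone of the endoplasmic reticulum, at -2.58 ± 0.42.

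Clock genes were called less often than all members. Of 19 clock genes, 4 were higher in ada2b, 3 were lower and 12 were not called, with a median of -0.02. That is a smaller share called than the 48.4% of all members. PRR3, a pseudo-response regulator, stood at 623 and 631 in ada2b and 235 and 248 in hag1, and wild type at 1053 and 1008 (1.37 ± 0.06, limma adjusted p = 5.63e-06). Of 15 cytosolic ribosomal protein genes, 4 were lower, by -0.21 to -0.31, and none was called without ada2b replicate 2 or without hag1 replicate 1. Among these STV1 (-0.26) was also not called without hag1 replicate 2. Of 11 ethylene genes, 1 was higher (2 without ada2b replicate 1, hag1 replicate 1 or hag1 replicate 2) and 4 lower (2 without ada2b replicate 1 or hag1 replicate 1). Of 15 root markers, 3 were lower and none higher, with 3 called higher without hag1 replicate 1 and 5 lower without hag1 replicate 2. The ribosomal protein genes and root markers, with 11 and 12 of 15 not called, also held a smaller share called than all members. Touch genes varied within genotypes. Their libraries were at least 1.5-fold apart for 13 of 18 genes in ada2b and 11 of 18 in hag1, against 5.95% and 6.53% of all members, and 2 of 18 were called lower and none higher. Without ada2b replicate 1 the count lower was 1, without ada2b replicate 2 it was 5, and 2 were called higher without ada2b replicate 1 or hag1 replicate 2. These genes respond within minutes to handling, and the part of handling was not tested.

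Further genes with both wild type libraries between the mutants included transporters and signalling genes. AMT1;4, an ammonium transporter known from pollen, stood at 21 and 21.4 in ada2b and 4.16 and 2.93 in hag1 and at 10.9 and 9.63 in wild type (2.3 ± 0.39, limma adjusted p = 0.00196). PP2-B2, a phloem protein 2 relative, stood at 18 and 15.6 in ada2b and 2.12 and 4.91 in hag1 and at 9.7 and 5.4 in wild type (2.05 ± 0.45, limma adjusted p = 0.00647). Both were highest in ada2b and lowest in hag1, though 1 wild type library of PP2-B2 lay close to hag1. Against wild type, PP2-B2 was not called in ada2b (limma adjusted p = 0.0712) or in hag1 (limma adjusted p = 0.118). AMT1;4 was not called in ada2b (limma adjusted p = 0.0667) and was called in hag1 (limma adjusted p = 0.0243). CPK22, a kinase of the calcium-dependent family, had 1 read in hag1 and 38 in ada2b (ratio 0.0263, 95% exact counting interval 0.000649 to 0.156). In the other direction, LSU1, a marker of low sulfur, stood at 64.1 and 66.2 in ada2b and 725 and 933 in hag1 and at 299 and 206 in wild type (-3.64 ± 0.20, limma adjusted p = 1.14e-05).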

How the data were processed

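Libraries of 12-day-old seedlings were sequenced as single-end 50 bp reads, per the labels' protocols, and grouped by genotype from their titles. The authors deposited 1 table of normalised count signal, which is not in whole numbers, with 1 column per library. Of tools and builds, HISAT2, edgeR and TAIR10 appear, without versions, per the submitters' processing notes. Sources used here do not give the counter, annotation, filter or use of strand, so overlapping and antisense genes cannot be told apart. No column of the table went unused (0).

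Because the deposited signal does not hold whole-number counts, limma 3.58.1 in R 4.3.3 (trend on mean level, two-sided) was run on log2(value + 1). The fit kept the 25459 genes that reached 1 in 2 or more of the 8 libraries. One model with 4 genotype means shared 1 estimate of spread (4 residual and 4.42 prior degrees of freedom). Its main contrast was ada2b minus hag1, and each mutant minus wild type was also taken from it. The fit was run on simulated data in which few genes were changed and all genes had the same spread. That run does not check the fit where many genes differ, as here.

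The members, the 38 gene lists (593 distinct genes, of which 529 are members) and the rules were chosen with earlier results of these data known, so counts over lists are descriptions. The naming rule took HAG1 and ADA2B, the 12 largest differences each way among called genes with a symbol and a mean of 30 or more, the 5 most abundant 2-fold genes each way, 3 genes per list with at least 3 called, and 5 each way with wild type between. It named 129 genes, not all of which are reported here, and the other genes in the text were chosen after their values were seen. All 32548 identifiers matched the RefSeq table of TAIR10.1, which supplied symbols and sequences. Its nuclear sequence is that of TAIR10, and the deposited table holds no coordinates. Alternatives were other scalings, filters, pseudocounts (0.1 and 10), samples, weights, a minimum 2-fold test, a replicate block and each library left out. Ratios with 3 or fewer reads used values rounded to whole reads.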

Additional observations from a re-analysis of the deposited data

How the results depend on the processing

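In a test against a minimum 2-fold difference, 104 members were higher in ada2b and 264 lower, in place of 5426 and 4973 (578 and 1644 at 2-fold or more). Under every other setting run, these 4 counts stayed within 1.5 times of the reported ones. With 1 library left out, the counts ranged from 3875 to 4379 (higher), 3745 to 3976 (lower), 528 to 604 (2-fold higher) and 1428 to 1588 (2-fold lower). Of the genes called, 52.2% were higher in ada2b, and 46.9% and 46.7% with median-ratio and upper-quartile scaling, where the median over members was -0.02. The replicate numbers of ada2b and hag1 do not pair the samples by the labels, and deviations of libraries with the same number correlated at 0.12. With the replicate block the counts called were 5204 higher and 4782 lower, and 575 and 1632 at 2-fold or more, and of the genes named in the text only GLU1 lost its call (adjusted p = 0.0517). Of 200 genes named by the rule or in the text, 181 were called, 124 lost the call in the 2-fold test and 20 under another setting, 15 of them with a library left out. Fitting only the 4 ada2b and hag1 libraries ended 12 calls, NIA2, GLU1, FIT1, COR15A, FUL and UBP22 among them. Fitting every gene above 0 ended 13 calls, among them NIA2, GLU1, FIT1, COR15A, FUL and GI. FRO2 and PHT1;1, which were not called, ranged with a library left out from -0.67 to 0.1 and from -0.15 to 0.24. A pseudocount of 10 or 0.1 moved the fitted difference of genes near 0 reads, and the depth of a value near 10 limits what can be said of them.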

Other observations

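Beyond the lists, the classes of non-coding genes were uneven. Of 98 small nucleolar RNA members, which guide the modification of ribosomal RNA, 1 was called at 2-fold or more higher in ada2b and 13 lower, with a median of -0.56. Of 39 microRNA genes, 1 was higher and 8 lower, with a median of -0.52. Long non-coding RNAs gave 36 higher and 65 lower of 1027, with a median of 0.01, close to the protein-coding genes at 526 and 1545 of 20138 (median 0.02). The shares lower were 13.3% of small nucleolar RNA members and 20.5% of microRNA genes. Members of any class had 24% lower at a mean under 30 (median -0.45) and 14.7% between 30 and 100. The part of level in the shares by class was not tested. How RNA was selected for the libraries is not given in the sources used here.

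The largest difference of all members belonged to AT1G64795, an uncharacterised gene, chosen after its value was seen. It stood at 276 and 299 in ada2b and 1.05 and 0.978 in hag1, and wild type at 353 and 339, while both scs1 scs2a libraries were at 0. With 2 reads in hag1 and 575 in ada2b, the ratio of hag1 to ada2b was 0.00348 (95% exact counting interval 0.00042 to 0.0126). The annotation places it inside AT1G64790 on the other strand. That host, ILA, stood at 3689.8 and 3722 in ada2b and 2819.6 and 2718 in hag1 and at 3489.8 and 3481 in wild type, a difference of 0.42 ± 0.05. Without a stated use of strand, reads of the overlapping pair cannot be told apart.

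AT3G51070, annotated as a methyltransferase, and AT3G51075 overlap on opposite strands, and both were low in hag1. AT3G51070 stood at 197 and 203 in ada2b and 12.5 and 8.8 in hag1 and at 119 and 110.0 in wild type. AT3G51075 stood at 234 and 244 in ada2b and 15.6 and 13.7 in hag1 and at 141 and 139 in wild type. Wild type lay between the mutants at both, and their reads cannot be told apart.

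Of the 20 member genes on each side of HAG1, 16 of 40 (40%) were called and 4 at 2-fold or more, against 48.4% and 10.3% of all members. Around ADA2B, 22 of 40 (55%) were called and 5 at 2-fold or more, of which AT4G16220, AT4G16230, AT4G16240 and AT4G16260 lie close together. By chromosome, 9.75 to 12% of members were called at 2-fold or more, with the highest share on chromosome 4.

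Promoter letters were compared over all members, in the window of 250 bases before and 50 after the start on both strands. Site II elements (TGGGCC), known from ribosomal and cell cycle promoters, occurred in 17.8% of members, 16.1% of the 2-fold genes higher in ada2b and 8.88% of those lower. The telo box (AAACCCT) occurred in 9.48%, 10.9% and 7.06%. The W box (TTGACC or TTGACT), bound by WRKY factors, occurred in 32.4%, 29.8% and 32%. The 2-fold genes lower in ada2b are more often at low levels, and the part of level in these shares was not tested.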
